A study of Mus musculus with 8 samples.

Results

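The immediate early response genes were read here as 10 named genes: *Fos*, *Fosb*, *Jun*, *Junb*, *Atf3*, *Egr1*, *Nr4a1*, *Ier2*, *Dusp1* and *Zfp36*. They were chosen by name, as a readout of acute stimulation or of handling of the tissue, and every array probe that carried one of the names was taken. The arrays held 13 such probes among 34850 probes with a gene symbol, and 10 such genes among 21597. Pancreas RNA from each of 8 female NOD mice, 12 weeks old, was labelled with the red dye Cy5. Each NOD sample was hybridized to its own two-color array together with green Cy3-labelled RNA from 1 pool of 8 NOD.B10 mice of the same age. NOD mice develop autoimmune diabetes spontaneously. NOD.B10 mice share the NOD background but carry the *H2b* segment of chromosome 17 in place of the NOD one, and serve as controls protected from diabetes. Neither strain was given a treatment, and the pancreas was homogenized directly after it was taken. All NOD mice were red and the pool was always green, so strain and dye cannot be told apart. The pool was 1 sample, so every error given below is the spread between the 8 NOD mice and their arrays and leaves out the spread between NOD.B10 mice.

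Immediate early genes are transcribed within minutes of a stimulus, without new protein synthesis, from promoters that are already occupied by factors such as CREB and SRF. Growth factors, calcium, cytokines and tissue stress all reach them, mainly through the MAP kinases. The FOS and JUN proteins pair to form the transcription factor AP-1, and other members of the group switch the response off again: *Dusp1* encodes a phosphatase of the MAP kinases, and *Zfp36* encodes a protein that binds AU-rich messenger RNA and speeds its decay. Because the transcripts rise and decay quickly, they also record what happened to a tissue in the minutes before RNA was preserved.

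The promoters of *Junb*, *Nr4a1* and *Dusp1* are shown because these are the genes with a probe that passed the test upward, as described below. Each line gives the 250 bases before the RefSeq start site, 5′ to 3′ on the strand of the gene, on GRCm38.p6. Capitals mark the CRE core, the centre of the site that CREB binds (TGACG or, read on the other strand, CGTCA), and the full CRE (TGACGTCA), which contains it. The positions are chr8:84978749-84978998 on the minus strand for *Junb*, chr15:101266596-101266845 on the plus strand for *Nr4a1* and chr17:26508473-26508722 on the minus strand for *Dusp1*.
*Junb*: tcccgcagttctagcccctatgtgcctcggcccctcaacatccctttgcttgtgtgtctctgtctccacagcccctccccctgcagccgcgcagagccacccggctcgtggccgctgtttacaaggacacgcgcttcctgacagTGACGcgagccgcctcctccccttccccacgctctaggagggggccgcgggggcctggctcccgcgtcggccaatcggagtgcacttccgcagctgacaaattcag
*Nr4a1*: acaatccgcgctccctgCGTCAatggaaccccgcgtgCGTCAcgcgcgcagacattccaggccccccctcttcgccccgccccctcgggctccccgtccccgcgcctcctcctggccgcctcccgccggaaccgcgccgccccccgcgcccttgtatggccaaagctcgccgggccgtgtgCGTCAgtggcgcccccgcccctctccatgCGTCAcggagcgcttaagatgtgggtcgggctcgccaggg
*Dusp1*: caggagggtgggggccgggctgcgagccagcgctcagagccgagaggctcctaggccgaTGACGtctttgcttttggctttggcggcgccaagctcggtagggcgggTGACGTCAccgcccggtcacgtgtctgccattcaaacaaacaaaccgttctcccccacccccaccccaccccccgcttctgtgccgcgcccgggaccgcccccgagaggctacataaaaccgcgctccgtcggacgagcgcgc
*Junb* held 1 CRE core, 106 bases before the start. *Nr4a1* held 4, at 233, 213, 69 and 40 bases, and *Dusp1* held 3, at 191, 143 and 140 bases, the last 2 of them on opposite strands of the full CRE at 143 bases. Of the 8 genes of the group with an entry in the promoter table, 6 held a CRE core in this window, against 17.8% of 32851 promoters. *Fos* held 2, *Fosb* and *Atf3* 1 each, and no match was found for *Jun* and *Zfp36*. The full CRE was found in *Dusp1* alone among the 8, and in 1.55% of all promoters. A CArG box, the site of SRF, was found in *Zfp36* alone, 58 bases before the start, against 1.47% of all promoters. No AP-1 site (TGANTCA) was found in any of the 8, against 6.75% of all promoters. All motifs were searched on both strands, and a match is a description of letters in this window only. *Egr1* and *Ier2* were not matched in the table.

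Of the 13 probes, 12 passed the filter on low signal (a red processed signal of at least 25 on at least 4 arrays) and were tested, and they covered all 10 genes. The call of the study's methods, a change of at least 2-fold with an adjusted p under 0.01, was met by 0 of the 12, against 1.72% of the 28105 probes tested (limma moderated test with Benjamini-Hochberg adjustment over all of them, as throughout). At an adjusted p under 0.01 with no minimum fold, 3 of the 12 were higher in NOD, against a background of 2.54%, and 1 was lower, against 4.4%. The 3 were the *Nr4a1* probe, the *Dusp1* probe and 1 of the *Junb* probes, and the 1 was a dim probe of *Ier2*. With median-centered signals 3 probes met the call, those of *Fos*, *Junb* (3′) and *Ier2* (5′). The plain one-sample statistic gave 0 calls, and 4 probes past an adjusted p of 0.01. An unadjusted limma p under 0.05 was found for 6 of the 12, and for 33.8% of all probes tested. The median of the 12 mean log2 ratios was 0.20, beside -0.09 over all probes tested. Under other normalizations this gap was not seen. With 1 probe for each gene, the median of the 10 genes was 0.20, but 0.06 with median-centered signals and 0.02 with normexp and loess, where all probes tested had 0.07 and -0.01. Without replicate 2 or without replicate 4 the number past an adjusted p of 0.01 fell from 4 to 1, without replicate 3 it was 2, and on either slide alone it was 0.

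**Figure D1:**
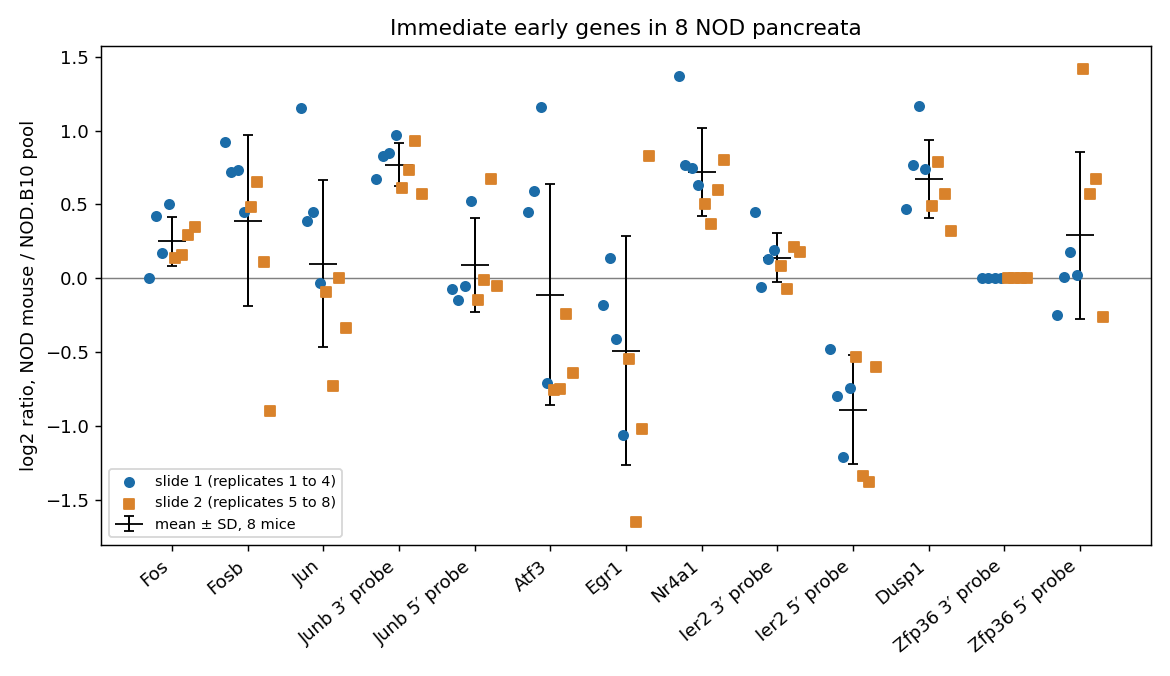
Log2 ratio of each NOD mouse to the NOD.B10 pool for the 13 probes, with slide 1 as circles, slide 2 as squares, and the mean ± SD of the 8 mice as black bars. The *Junb* 3′ probe, *Nr4a1* and *Dusp1* lie above 0 in all 8 mice, the *Ier2* 5′ probe lies below 0 in all 8, and the *Zfp36* 3′ probe is at 0 throughout.

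*Nr4a1* encodes an orphan nuclear receptor (NUR77) that is induced by antigen receptor signalling in lymphocytes and by many other stimuli. Its probe lies on chromosome 15, mm8 101102674 to 101102733, plus strand, and was well above background in both dyes on every array. The log2 ratios of replicates 1 to 8 were 1.37, 0.77, 0.75, 0.63, 0.50, 0.37, 0.60 and 0.80. All 8 mice were higher than the pool, and replicate 1 stood apart from the other 7. The red signals of the mice ran from 5120 to 9650 and the green signals of the pool from 2940 to 4440, so the ranges did not overlap. The mean was 0.72 ± 0.299 (SD, n = 8), 1.65-fold, with a 95% interval of 0.49 to 0.96. The limma adjusted p was 0.00379 and the exact sign-flip p was 0.00781, the smallest that 8 arrays can give. When background-subtracted signals were centered on each array's median the mean was 0.38 (limma adjusted p = 0.206), and with normexp correction and loess it was 0.29 (limma adjusted p = 0.313). Leaving out replicate 2, 3, 4 or 8 gave means of 0.72, 0.72, 0.74 and 0.71 with limma adjusted p-values of 0.0126, 0.0128, 0.0119 and 0.0106, just past 0.01.

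*Dusp1*, the phosphatase that inactivates MAP kinases and is among the genes that glucocorticoids induce, has its probe on chromosome 17, mm8 26233451 to 26233508, minus strand. The log2 ratios of replicates 1 to 8 were 0.47, 0.77, 1.17, 0.74, 0.49, 0.79, 0.57 and 0.32. All 8 mice were higher than the pool, and replicate 3 was the highest. Red signals ran from 630 to 1280 and green signals from 483 to 618, again without overlap. The mean was 0.67 ± 0.265 (SD, n = 8), 1.59-fold, with a 95% interval of 0.46 to 0.88 and a limma adjusted p of 0.00336. With median-centered signals the mean was 0.02 (limma adjusted p = 0.964), and with normexp and loess it was 0.08 (limma adjusted p = 0.632), so the ratio was near 0 under both other normalizations. Leaving out replicate 2, 4 or 6 gave means of 0.65, 0.66 and 0.65 with limma adjusted p-values of 0.0114, 0.0118 and 0.0103. *Dusp1* is on the chromosome that carries the segment by which the strains differ. Its probe lay 7.37 to 7.38 Mb from the 3 *H2-K1* probes on mm8, how far the *H2b* segment reaches is not given in the sources used here, and its part in the ratio was not tested.

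*Junb*, which encodes an AP-1 subunit of the JUN family, was measured by a pair of overlapping probes on chromosome 8, minus strand. The one nearer to the 3′ end covers mm8 87867049 to 87867108 and the one nearer to the 5′ end 87867087 to 87867146, so that they share 22 bases. The 3′ probe had log2 ratios of 0.67, 0.83, 0.85, 0.97, 0.61, 0.73, 0.93 and 0.57 in replicates 1 to 8. These were all above 0, and red signals of 1680 to 2860 stood above green signals of 1130 to 1610. The mean of the 3′ probe was 0.77 ± 0.148 (SD, n = 8), 1.70-fold, with a 95% interval of 0.65 to 0.89 and a limma adjusted p of 0.000327. It lay between 0.68 and 1.01 in all 19 alternatives run, and 17 of them kept an adjusted p under 0.01, the other 2 being each slide alone (limma adjusted p of 0.0157 and 0.0572). Alternatives that change only the statistic, the filter, the covariate or the threshold use the same ratios and cannot move this mean. Taking the 5′ probe instead was not among the 19, and its values follow below.

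The *Junb* 5′ probe had log2 ratios of -0.07, -0.15, -0.05, 0.52, -0.15, -0.01, 0.67 and -0.05. Replicates 4 and 7 were above the pool and the other 6 mice were at or just below it. Its mean was 0.09 ± 0.320 (SD, n = 8), with a 95% interval of -0.16 to 0.34 and a limma adjusted p of 0.596. Without replicate 7 it was 0.01 and without replicate 4 it was 0.03. The 3′ probe exceeded the 5′ probe in all 8 mice, by 0.26 to 0.98 and on average by 0.68 ± 0.236 (SD) on the log2 ratio scale (exact sign-flip p = 0.00781, the smallest possible). Both probes were bright in red and in green on each of the 8 arrays. The 2 probes of *Junb* thus gave different answers on the same RNA, and replicates 4 and 7 were the highest on both.

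**Figure D2:**
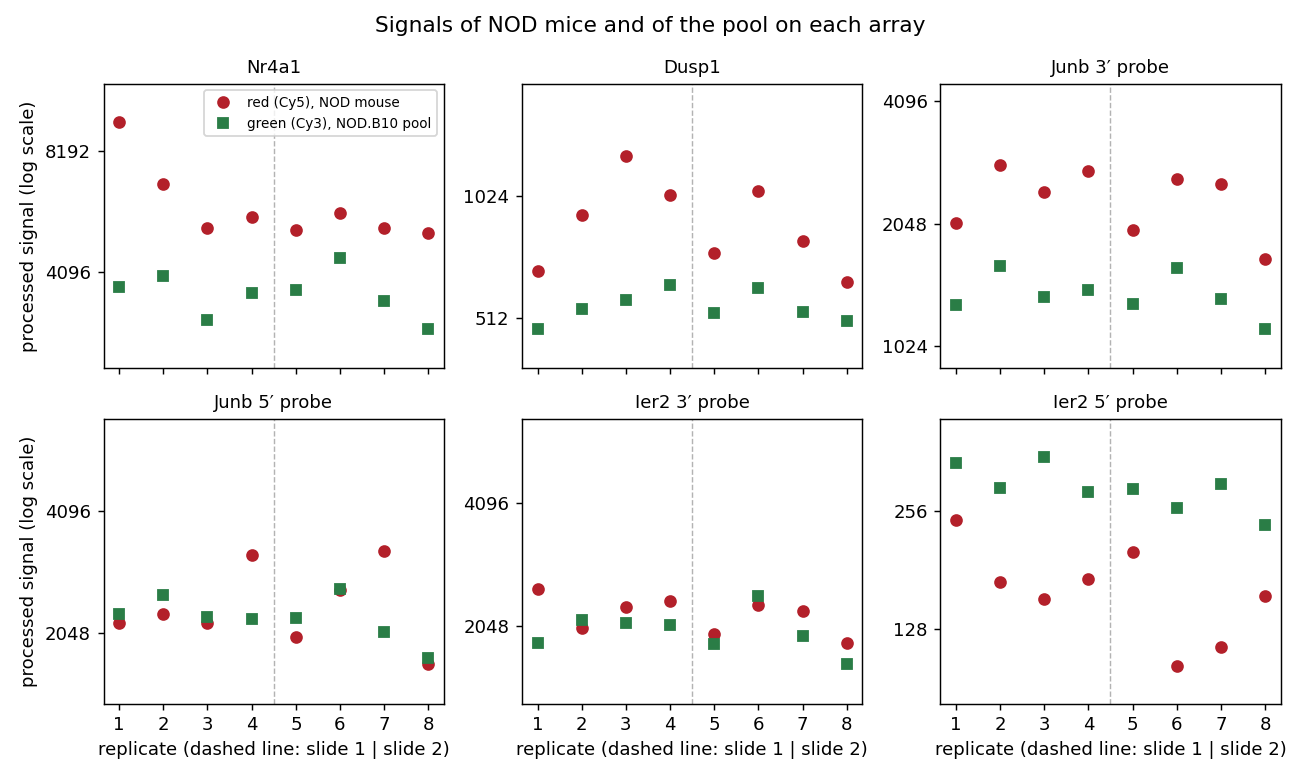
Processed signal (log scale) of the NOD mouse in red circles and of the pool in green squares on each of the 8 arrays, for 6 probes. Red stands above green on every array for *Nr4a1*, *Dusp1* and the *Junb* 3′ probe, crosses it for the *Junb* 5′ and *Ier2* 3′ probes, and stays below it for the *Ier2* 5′ probe.

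*Ier2*, which encodes a nuclear protein of little known function induced by growth factors, was also measured by 2 probes on chromosome 8, minus strand. The 3′ probe covers mm8 87549655 to 87549689 as listed, a span of 35 bases, and the 5′ probe covers 87549829 to 87549887. The 3′ probe had log2 ratios of 0.45, -0.06, 0.13, 0.19, 0.08, -0.07, 0.21 and 0.18, with red signals of 1860 to 2530 and green signals of 1650 to 2420. Mice lay on both sides of the pool and the signal ranges overlapped. Its mean was 0.14 ± 0.167 (SD, n = 8), with a 95% interval of 0.00 to 0.27 and a limma adjusted p of 0.141. The 5′ probe had log2 ratios of -0.48, -0.80, -1.21, -0.74, -0.53, -1.34, -1.38 and -0.60. All 8 mice were below the pool. The mean was -0.89 ± 0.370 (SD, n = 8; limma adjusted p = 0.00386), but its red signal, 103 to 242, rose well above background on only 2 of 8 arrays. The 3′ probe exceeded the 5′ probe in 8 of 8 mice by a mean of 1.02 ± 0.340 (SD) on the log2 ratio scale (exact sign-flip p = 0.00781). With normexp and loess, which adds an offset of 50 to each signal and so shrinks the ratios of dim probes, the mean of the 5′ probe was -0.21 (limma adjusted p = 0.0223). With median-centered signals it was -1.48 (limma adjusted p = 0.000958). The mean of the 3′ probe was -0.01 with normexp and loess and 0.06 with median-centered signals, so the gap between the probes depended on the normalization. For the 5′ probe, leaving out replicate 2, 3 or 4 gave means of -0.90, -0.84 and -0.91 with limma adjusted p-values of 0.0120, 0.0124 and 0.0118.

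*Jun*, the partner of FOS in AP-1, was printed as 10 spots of 1 probe on each array (chromosome 4, mm8 94541191 to 94541250, minus strand). The means of the 10 spots were 1.15, 0.39, 0.45, -0.03, -0.09, -0.73, 0.00 and -0.34 in replicates 1 to 8. Replicate 1 was the highest and replicate 6 the lowest, and the 8 mice averaged 0.10 ± 0.568 (SD), with a 95% interval of -0.34 to 0.54 and a limma adjusted p of 0.760. The green signal of the pool ran from 230 to 356 and the red signal from 204 to 536, and once each array was centered their log2 values had SDs of 0.0874 and 0.486. The 10 copies show the spread between spots of 1 array. On slide 1 they had an SD of 0.148 to 0.239 within an array, and red was well above background in 40 of 40 spots. On slide 2 they had an SD of 0.515 to 0.656, and red was well above background in 14 of 40 spots. The standard error of an array's mean was at most 0.0754 on slide 1 and 0.208 on slide 2, which covers the noise between spots of 1 hybridization and not that of labelling or of the array. Without replicate 1 the mean of *Jun* was -0.05.

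*Fos*, the best known immediate early gene, was also printed as 10 spots of 1 probe (chromosome 12, mm8 86366053 to 86366112, plus strand). Red was well above background in 0 of its 80 spots and green in 3, and in 56 spots the software had put a stand-in value in place of the red signal. The log2 ratio was 0 in 46 spots. The array means were 0.00, 0.42, 0.17, 0.50, 0.14, 0.16, 0.29 and 0.35, with red signals of 27.8 to 71.6 and green signals of 17.2 to 27.9. These signals lay at the floor of the array, and the mean there was 0.25 ± 0.166 (SD, n = 8; limma adjusted p = 0.0219). The ratio of the processed signals gave 0.81 (limma adjusted p = 0.00093). With median-centered signals the value was 1.55 (limma adjusted p = 3.11e-05) and with normexp and loess 0.02 (limma adjusted p = 0.741). At this sensitivity *Fos* was not detectable in the NOD mice, and in the pool 3 spots of 1 array rose above background.

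**Figure D3:**
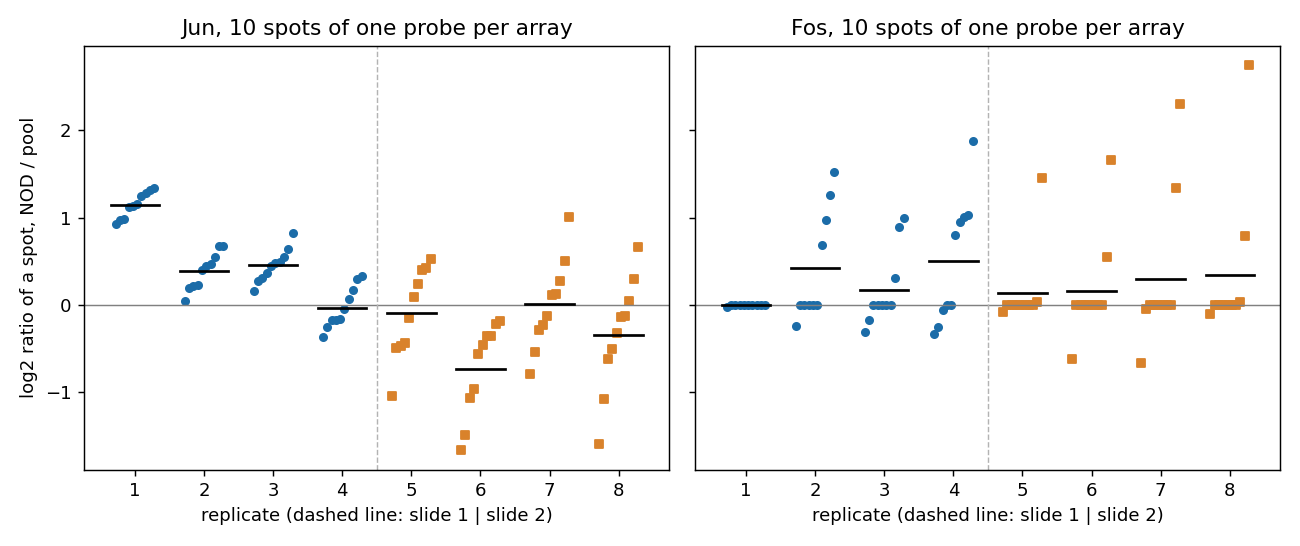
Log2 ratio of each of the 10 spots of the *Jun* probe and of the *Fos* probe on each of the 8 arrays, with the array mean as a black line. *Jun* spots spread more widely on slide 2 (SD 0.515 to 0.656) than on slide 1 (SD 0.148 to 0.239), and 46 of the 80 *Fos* spots sit at 0.

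*Fosb*, a FOS relative, has its probe on chromosome 7 (mm8 18461650 to 18461709, minus strand) and had log2 ratios of 0.92, 0.72, 0.73, 0.45, 0.48, 0.65, 0.11 and -0.90. It was higher than the pool in 7 of 8 mice, and replicate 8 was far below the others. Its mean was 0.39 ± 0.577 (SD, n = 8), with a 95% interval of -0.06 to 0.84 and a limma adjusted p of 0.202. The green signal of *Fosb* was 157 to 204 on arrays 1 to 6 but 80.7 and 88.0 on arrays 7 and 8, although the same pool was on all of them, and red was lower there too, 86.9 and 47.1 beside 252 to 320 on the first 6 arrays. On arrays 7 and 8 the red signal was not well above background. Without replicate 8 the mean was 0.58 (limma adjusted p = 0.0107). With median-centered signals it was 0.67, past the threshold (limma adjusted p = 0.00564), and with normexp and loess 0.17 (limma adjusted p = 0.0276).

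*Atf3*, a stress-induced partner of JUN, has its probe on chromosome 1 (mm8 192871283 to 192871342, minus strand). Its log2 ratios were 0.45, 0.59 and 1.16 in replicates 1 to 3 and -0.71, -0.76, -0.75, -0.24 and -0.64 in replicates 4 to 8. The first 3 mice were above the pool and the other 5 below it, with a mean of -0.11 ± 0.747 (SD, n = 8), a 95% interval of -0.70 to 0.47 and a limma adjusted p of 0.803. Red, at 39.2 to 176, was well above background on 0 of 8 arrays, so no level of *Atf3* in single mice was established.

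*Egr1*, a zinc finger factor whose probe is on chromosome 18 (mm8 34990715 to 34990774, plus strand), had log2 ratios of -0.18, 0.14, -0.41, -1.06, -0.55, -1.65, -1.02 and 0.83. Replicates 2 and 8 were above the pool and the other 6 below it. The mean was -0.49 ± 0.775 (SD, n = 8), with a 95% interval of -1.09 to 0.12 and a limma adjusted p of 0.234. With median-centered signals it was -0.92 (limma adjusted p = 0.0416), with normexp and loess -0.02, and without replicate 6 it was -0.32. The green signal, 140 to 243, was well above background on every array and the red signal, 77.5 to 248, on 1.

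*Zfp36* was represented by a pair of probes on chromosome 7, minus strand. The 3′ probe (mm8 28085681 to 28085740) did not pass the filter on low signal and its ratio was 0 on all 8 arrays, so only the 5′ probe (28085873 to 28085932) gave values. Its log2 ratios were -0.25, 0.01, 0.18, 0.02, 1.42, 0.57, 0.67 and -0.26. Replicates 5, 6 and 7 were higher than the rest. On 2 arrays the red signal was flagged as well above background. The mean was 0.29 ± 0.568 (SD, n = 8), with a 95% interval of -0.15 to 0.74 and a limma adjusted p of 0.327. Without replicate 5 it was 0.13 (limma adjusted p = 0.519). Its sign changed to -0.66 with median-centered signals (limma adjusted p = 0.0262) and to -0.09 with normexp and loess.

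Single genes peaked in different mice. Taking the brightest probe of each gene, replicate 1 held the highest value for 4 genes and replicate 3 for 2, and replicates 4, 5, 7 and 8 for 1 each. Replicate 6 held the lowest value for 4 genes and replicate 8 for 3. The median of the 10 genes was 0.45, 0.40, 0.31 and 0.32 in replicates 1 to 4 and 0.11, 0.08, 0.25 and 0.06 in replicates 5 to 8. The 4 mice of slide 1 thus all lay above the 4 of slide 2, although no single tested probe of the group separated the slides. These medians are of the deposited ratio. No such medians were taken over all genes or with other normalizations. The median SD between mice was 0.345 for the 12 tested probes, 0.466 for all probes tested and 0.246 for the 7388 bright probes, those flagged as well above background for Cy5 and for Cy3 on each array. Of the 13 probes, 5 were well above background on every array in red and 11 in green, and red varied more between arrays than green for all 13. Of the 43379 spots read on each array, 21.6% to 35.3% were well above background in red and 57.6% to 60.7% in green. For the bright probes the median SD of the centered log2 signal was 0.279 in red and 0.0821 in green, so both traits were general to the arrays. Among the bright probes, a ratio above 0 on all 8 arrays was common, at 11.9%, against 3.92% of all probes tested. Over all probes tested, a ratio below 0 on all 8 was found for 9.4% and red signals wholly above green signals for 7.19%. In the group these counts were 3 of 12 above 0 in every mouse, 1 below 0 in every mouse, and 3 with red wholly above green. In whole pancreas, more cells that use a gene and more RNA per cell cannot be told apart.

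Replicates 1 to 4 were on 1 slide and replicates 5 to 8 on another, and the group was compared between slides because its members can respond to handling. No labels say how mice were assigned to slides, so slide and mouse cannot be told apart. The deposited ratio was lower on slide 2 for 10 of the 12 tested probes, as it was for 45.8% of all probes. With the deposited ratio the widest gaps were those of *Atf3*, with a mean of 0.37 ± 0.785 (SD) on slide 1 and -0.60 ± 0.244 on slide 2, and of *Jun*, with 0.49 ± 0.489 and -0.29 ± 0.329. The differences, -0.97 for *Atf3* (95% interval -1.90 to -0.04) and -0.78 for *Jun* (-1.45 to -0.11), had limma adjusted p-values of 0.239 and 0.192. Exact permutation tests of 4 arrays against 4 gave p = 0.0857 for *Atf3* and p = 0.0571 for *Jun*, where 0.0286 is the smallest possible. For *Jun* the centered log2 red signal differed between slides by -0.64 and the green by 0.06, and for *Atf3* by -0.89 and 0.08, the red of *Atf3* being a stand-in value on 3 of 4 arrays of slide 2. The order of the gaps depended on the scaling. With normexp and loess the differences were -0.09 for *Atf3* and -0.17 for *Jun*, beside -0.78 for *Nr4a1* and 0.68 for the *Junb* 5′ probe, and with median-centered signals -0.97 and -1.09, beside -1.33 for *Dusp1* and -1.17 for the *Ier2* 5′ probe. No probe of the group met the call between slides, against 0.114% of all probes tested, and an unadjusted limma p under 0.05 was found for 2 of 12, *Jun* and *Atf3*, against 19.3% of all. The ratios of the slides overlapped for all 12 probes, while 12.9% of all probes tested showed no overlap.

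The 3 probes that were higher in NOD had slide differences of -0.31 (*Nr4a1*), -0.24 (*Dusp1*) and -0.12 (the *Junb* 3′ probe). *Nr4a1* averaged 0.88 on slide 1 and 0.57 on slide 2, *Dusp1* 0.79 and 0.54, and the *Junb* 3′ probe 0.83 and 0.71, with limma adjusted p-values for the difference of 0.413, 0.498 and 0.591. The 95% intervals of these differences, -0.75 to 0.12, -0.65 to 0.16 and -0.36 to 0.12, do not exclude a lower value on slide 2. With median-centered signals the differences were -0.93, -1.33 and 0.30 (limma adjusted p = 0.159, 0.0514 and 0.549), and with normexp and loess -0.78, -0.46 and 0.30 (limma adjusted p = 0.103, 0.0826 and 0.344), so the *Junb* 3′ probe changed sign. With the deposited ratio, *Zfp36* and the *Junb* 5′ probe had the higher mean on slide 2, *Zfp36* with -0.01 and 0.60 and a 95% interval of the difference of -0.19 to 1.41. The slides differed in quality. The median coefficient of variation among spots of repeatedly printed probes was, for red, 16.1% to 24.8% on slide 1 and 38.2% to 63.5% on slide 2, against 6.81% to 13.8% for green. The software rated the grid as good on 4 of 4 arrays of slide 1 and on 1 of 4 of slide 2. Genes of the heat shock list, which tissue handling can also induce, were read by slide as well. The median log2 ratio of its 8 genes was 0.82 on slide 1 and -0.41 on slide 2, their summed red signal was 41800 to 63500 and 17600 to 27400, and their median over all mice was 0.27 (-0.04 with median-centered signals), with 0 called, 0 past an adjusted p of 0.01 and 1 with an unadjusted limma p under 0.05. *Hspe1*, a mitochondrial chaperone, had 0.39 ± 0.396 (SD; limma adjusted p = 0.0793), *Hspb1* 0.19 ± 0.277 (limma adjusted p = 0.201) and *Dnajb1* 0.30 ± 0.566 (limma adjusted p = 0.319). *Hspb1* turned to -0.36 with median-centered signals and to -0.31 with normexp and loess, and *Hspe1* had 0.14 and 0.11. *Hspa8*, a constitutive chaperone, had means of 1.31 and -0.41 (limma adjusted p for the difference = 0.0102). The part of spot quality or of heat shock in the values of *Jun* and *Atf3* was not tested.

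**Figure D4:**
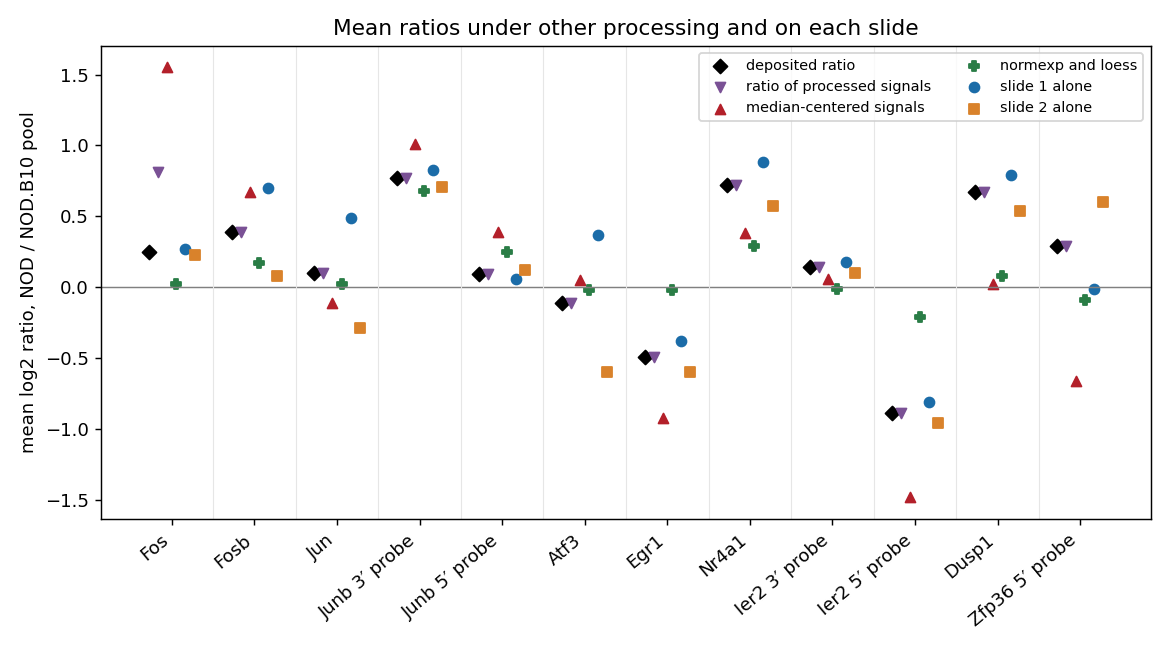
Mean log2 ratio of the 12 tested probes with the deposited ratio, the ratio of deposited processed signals, 2 other background and dye normalizations, and each slide alone. The *Junb* 3′ probe stays between 0.68 and 1.01, while *Dusp1* is near 0 under both other normalizations and *Fos* ranges from 0.02 to 1.55.

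Wider sets of genes from the same response were read in the same way, taking the brightest probe of each gene. Over all 18505 tested genes, 0.389% were called higher and 1.29% lower, 3.29% were higher and 4.8% lower at an adjusted p under 0.01 with no minimum fold, and the median was -0.08. An unadjusted limma p under 0.05 was found for 6621 of the 18505. Read this way, 2 of the 10 immediate early genes, *Nr4a1* and *Dusp1*, were higher at an adjusted p under 0.01, since the 5′ probe of *Junb* had the higher mean log2 signal over both dyes and was taken. Of 14 other AP-1 and bZIP factors, 0 were called and 0 passed an adjusted p under 0.01, 5 had an unadjusted limma p under 0.05, and their median was -0.08. The lowest p-values were those of *Jund*, the JUN family member with the steadiest expression, at -0.25 ± 0.166 (SD; limma adjusted p = 0.0242), *Atf1* at 0.33 ± 0.237 (limma adjusted p = 0.0266) and *Creb1*, which encodes CREB, at -0.37 ± 0.347 (limma adjusted p = 0.0648). The sign of *Atf1* turned with median-centered signals, to -0.33, and with normexp and loess, to -0.13, while *Jund* had -0.75 and -0.62 and *Creb1* -0.66 and -0.08.

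Of 19 other early transcription factors tested, 0 were called, 1 was lower at an adjusted p under 0.01, 8 had an unadjusted limma p under 0.05, and the median was 0.01. The lower gene was *Klf2*, a factor of quiescent lymphocytes and of endothelium under flow, at -0.53 ± 0.255 (SD) with 8 of 8 mice below the pool (limma adjusted p = 0.00644). *Bhlhe40*, a repressor of the circadian clock, had 0.70 ± 0.412 with 8 of 8 mice above (limma adjusted p = 0.0133), and *Id1*, an inhibitor of bHLH factors, 0.58 ± 0.382 with 7 of 8 (limma adjusted p = 0.0205). With median-centered signals and with normexp and loess, *Klf2* had -0.76 and -0.47, *Bhlhe40* 0.22 and 0.08 and *Id1* 0.89 and 0.24.

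Among 33 tested genes of feedback and of early effectors, 1 was called higher and 1 lower, and the median was -0.13. *Dusp2*, a phosphatase of the MAP kinases found mainly in blood cells, was higher in all 8 mice, at 1.37 ± 0.535 (SD; limma adjusted p = 0.00305), and with normexp and loess had 0.49. *Zfp36l2*, a relative of *Zfp36*, was lower in all 8 mice, at -1.12 ± 0.611 (limma adjusted p = 0.00994), but its red signal rose well above background on 0 arrays, and with normexp and loess it had -0.06. *Trib1*, a pseudokinase, was higher in all 8 mice without reaching 2-fold, at 0.70 ± 0.345 (limma adjusted p = 0.00694).

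Early cytokines and growth factors gave little signal. Of 10 tested, 0 were called, 0 passed an adjusted p under 0.01 and 2 had an unadjusted limma p under 0.05, and 9 of the 13 with a probe were never well above background in red. Their median of 0.13 became 0.95 with median-centered signals and 0.03 with normexp and loess, as for other genes at the floor. *Tnf* had 0.29 ± 0.240 (SD; limma adjusted p = 0.0476), *Ccl4* 0.74 ± 0.930 (limma adjusted p = 0.141) and *Edn1*, which encodes a vasoconstrictor peptide, -0.23 ± 0.418 (limma adjusted p = 0.311). All 3 were well above background in red on 0 arrays. Of 21 tested kinases and SRF cofactors upstream of the response, 0 were called, 0 passed an adjusted p under 0.01, 7 had an unadjusted limma p under 0.05, and the median was -0.08. *Mrtfa*, an actin-controlled cofactor of SRF, had -0.28 ± 0.248 (SD; limma adjusted p = 0.0552) and *Mrtfb* -0.56 ± 0.508 (limma adjusted p = 0.0572). *Mrtfa* had -0.02 under both other normalizations. *Mrtfb*, whose red signal rose well above background on 0 arrays, turned to 0.94 with median-centered signals and had -0.07 with normexp and loess.

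**Figure D5:**
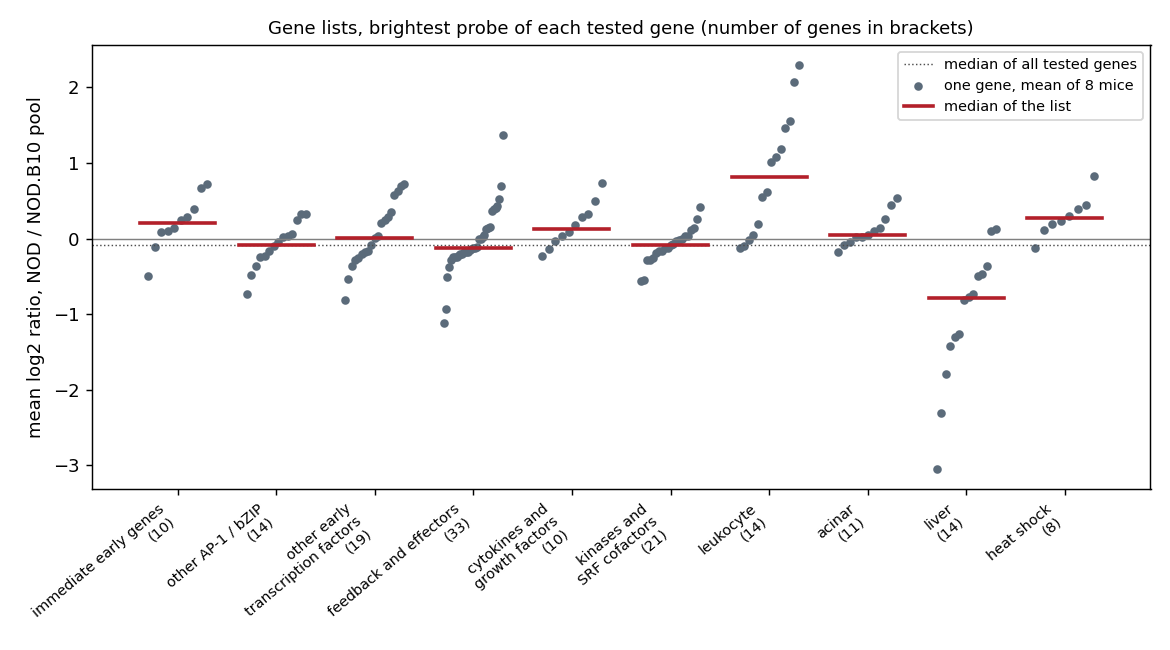
Mean log2 ratio over 8 mice of every tested gene in the immediate early group and 9 other lists, with the median of each list in red and that of all tested genes dotted. The immediate early genes have a median of 0.20, the other lists of the response lie between -0.13 and 0.13, leukocyte markers are at 0.81 and liver genes at -0.79. These are deposited ratios, and the immediate early median is 0.06 with median-centered signals and 0.02 with normexp and loess.

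Cells other than pancreatic exocrine cells express these genes too, and markers of other cells were read beside them. Leukocyte markers, 14 tested, had a median of 0.81, with 0 called, 1 past an adjusted p of 0.01 and 8 with an unadjusted limma p under 0.05. The median was 1.02 with median-centered signals and 0.10 with normexp and loess. The 1 past the threshold was *Cd3e*, a chain of the T-cell receptor complex, at 0.61 ± 0.305 (SD; limma adjusted p = 0.00762), higher in 8 of 8 mice. *Cd3d* had 2.07 ± 1.14 (limma adjusted p = 0.0101) and the kinase gene *Lck* 2.30 ± 1.35 (limma adjusted p = 0.0128), each higher in 7 of 8 mice. Both were dim, with *Cd3d* well above background in red on 3 arrays and in green on 5, and *Lck* in red on 4 and in green on 2. With normexp and loess they had 0.22 and 0.26, and *Cd3e* 0.52. The summed red signal of the list was 5760 to 20700 and the summed green signal 3970 to 10000. *Nr4a1*, *Junb* and *Dusp2* are used by lymphocytes, and the part of leukocytes in their ratios was not tested.

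Acinar markers, mainly digestive enzymes that define the exocrine pancreas, were well above background for Cy5 and for Cy3 on every array in 10 of 11 genes, the exception being *Cela2a*, with summed red signals of 2180000 to 3710000 and green of 2210000 to 2640000. Of 11 tested, 0 passed an adjusted p under 0.01, 2 had an unadjusted limma p under 0.05, and the median was 0.05, but 0.44 with median-centered signals and 0.85 with normexp and loess. The lowest p-values were those of *Pnlip*, a lipase, at 0.45 ± 0.305 (limma adjusted p = 0.0230), *Ctrb1*, a chymotrypsinogen, at 0.54 ± 0.434 (limma adjusted p = 0.0390) and *Cel* at 0.26 ± 0.333 (limma adjusted p = 0.157). With normexp and loess these were 1.85, 1.87 and 1.29. Of 14 tested liver genes, 5 were called lower, 6 were lower at an adjusted p under 0.01, and the median was -0.79, with -0.84 under median-centering and -0.13 under normexp and loess. The 5 were *Alb* at -2.31 ± 0.599, *Fgb* at -3.05 ± 0.933, *Apoa2* at -1.80 ± 0.527, *Apoh* at -1.42 ± 0.698 and *Apoa1* at -1.30 ± 0.239 (SD; limma adjusted p from 0.000305 to 0.00679). Red was well above background on 5 arrays for *Alb* and on 0 for the other 4. Summed over the list, red was 5410 to 7470 and green 9390 to 13600. The part of liver transcripts in the ratios of the immediate early genes was not tested.

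Genes whose ratio across the 8 mice was most like the mean of the group were found among 6187 other genes with a bright probe as defined above. The mean profile, over the 6 genes of the group with enough signal, was 0.71, 0.40, 0.53, 0.42, 0.22, 0.17, 0.36 and 0.00 in replicates 1 to 8, highest in replicate 1 and lowest in replicate 8, with all 4 values of slide 1 above all 4 of slide 2. The value of replicate 8 includes the -0.90 of *Fosb*, whose red signal there was not well above background. How often other sets of genes separate the slides in this way was not tested. Across these 8 arrays the highest Pearson's r were those of *Zdhhc9* (0.952), *Rbm6* (0.951), *Mrpl35* (0.948), *Ppp2r5a* (0.943) and *Kdelr2* (0.938). After each slide was centered on its own mean, the highest were *Glo1* (0.959), *Mast3* (0.947), *Tpcn1* (0.942), *Zfp771* (0.941) and *Cops6* (0.938), with no gene in both lists. The points share the pool, the slides and the dye normalization of each array, values of this size are reached by some gene when 6187 are ranked over 8 points, and none of the wider early response genes was among the 10.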

How the data were processed

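Total RNA (1 ug) from the pancreas of each of 8 NOD mice (Cy5, red) was hybridized against pooled RNA of 8 NOD.B10 mice (Cy3, green) on Agilent 4x44K arrays. Per the file headers, images were read with Feature Extraction 10.7.3.1 (Agilent). The log10 ratios deposited by the authors and, for each dye, the processed signal intensity (background-subtracted, dye-normalized by linear and lowess steps) were used, with the deposited flags for signals well above background. The software sets stand-in values for dim spots. Probe positions are mm8 (NCBI36).

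Log10 ratios were converted to log2 and spots of 1 probe averaged. limma 3.58.1 (run in R 4.3.3) tested 28105 probes with a symbol and a red signal of at least 25 in at least 4 arrays, against 0 and between slides, with Benjamini-Hochberg adjustment; 95% intervals are those of limma. It was tested on simulated data first. Single probes were also tested with all 256 sign flips, and slides with all 70 splits of 4 against 4. Exact tests ran by full enumeration in Python 3.11.15 (pandas 2.3.3). Alternatives were the plain statistic, other filters, irregular spots left out, median-centered signals, normexp (offset 50) with loess, the ratio of processed signals, slide as covariate, each slide alone, each mouse left out, other thresholds and other probes. Arrays give no counts, and their number limits the precision.

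Members, lists and tests were chosen with earlier results of these data known. Named are every member and probe, the called genes of each other list or up to 3 with the lowest p where fewer than 3 were called, and the 5 genes most like the group over all arrays and within slides. *H2-K1*, *Hspa8* and *Cela2a* were named after their values were seen. The values of 1 gene that this rule names are not reported here. Promoters are from RefSeq (GRCm38.p6), where 8 of 10 genes matched, and no position was converted between builds.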

Additional observations from a re-analysis of the deposited data

Results flagged for a closer look

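Each of the 12 tested probes was examined for a mouse that stood apart from the other 7, taken as a gap to the nearest mouse of more than 0.526 of the whole range (Dixon's 95% critical value for 8 values, which chance passes in about 5% of probes). It was found for 2. The 5% holds for normally distributed values. The share over all tested probes was not counted, so the 2 cannot be called an excess. *Fosb* in replicate 8 had a log2 ratio of -0.90, with a gap of 0.555 of the range, on an array where the green signal of the pool, at 88.0, was also below the 157 to 204 of replicates 1 to 6. The red signal of *Fosb* there, 47.1, was not well above background. *Nr4a1* in replicate 1 had 1.37, with a gap of 0.569 of the range, and a red signal of 9650 against 5120 to 6790 in the other mice. Without replicate 1 the mean of *Nr4a1* was 0.63 and its limma adjusted p stayed under 0.01.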

How the results depend on the processing

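No paired analysis was possible because the arrays form 1 group and their numbers name mice. No probe of the group was called at 2-fold except with median-centered signals (3) and at a fold of at least 1.5 (4). The 4 probes past an adjusted p of 0.01 became 1 with normexp and loess, 0 on slide 1 alone and 0 on slide 2 alone, each with 4 arrays, and 1 to 4 with 1 mouse left out. Between slides the count stayed at 0 throughout. Median-centering moved the median of all tested probes from -0.09 to 0.07, a shift of 0.16. Against the pool the sign turned for *Jun* (-0.11 median-centered, -0.29 on slide 2, -0.05 to 0.22 with 1 mouse left out), the *Ier2* 3′ probe (-0.01 normexp, -0.89 by the other probe), *Atf3* (0.05 median-centered, 0.37 on slide 1) and *Zfp36* (-0.66 median-centered, -0.09 normexp, -0.01 on slide 1). Between slides it turned for *Fos* (0.39 by processed signals, -0.13 to 0.04 with 1 mouse left out), *Fosb* (0.04 normexp), the *Junb* 3′ probe (0.30 in both), the *Junb* 5′ probe (-0.13 to 0.21 with 1 mouse left out), *Egr1* (0.00383 normexp, -0.70 to 0.13 with 1 left out), the *Ier2* 3′ probe (-0.16 to 0.01 with 1 left out), the *Ier2* 5′ probe (0.06 normexp) and *Zfp36* (-0.86 median-centered, -0.14 normexp). The cause was not tested. Of the values of single probes against the pool under an alternative, 187 kept their direction and side of the threshold, 5 newly passed it, 23 no longer passed it and 10 turned. Of those between slides, 137 kept theirs and 14 turned. Alternatives that change only the statistic, the filter, the covariate or the threshold cannot turn a value, and they add to the counts that kept theirs. The 5 include *Fos* at the looser threshold of 0.05 and the *Junb* 5′ probe replaced by the 3′ probe. The 10 include the *Ier2* 3′ probe replaced by the dim 5′ probe. Dim red signal limits *Fos*, *Atf3*, *Egr1*, *Zfp36* and the *Ier2* 5′ probe, and also *Fosb* in replicates 7 and 8.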
